A study of Homo sapiens with 8 samples.

Results

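The genes described here make cholesterol and fatty acids, or set how much of both a cell makes, and most are textbook targets of the sterol regulatory element-binding proteins (SREBPs). They were taken by symbol from a list of 34 names, of which 32 are among the 24462 gene symbols of the count table. The remaining 2, SC4MOL and SC5DL, are older names of MSMO1 and SC5D, which are in the table. The 32 genes comprised 18 enzymes of sterol synthesis, 8 enzymes of fatty acid synthesis, 4 regulators of the SREBPs, and AACS and STARD4, which belong to neither arm. All 32 passed the filter on low counts, in a fit of 13457 genes.

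The study asked what interferon-gamma (IFN-gamma), a cytokine of T cells and natural killer cells, does to the transcriptome of cultured human cancer cells. There were 4 established lines, labelled 549 (lung cancer), A375 (origin skin), A498 (origin kidney) and H1703 (lung cancer), and the labels name no introduced allele. Each was grown in RPMI medium with serum, either untreated or with IFN-gamma at 20 ng/ml, and 72 hours is the time given for both arms. Each line and arm had 1 library, 8 in all, so the 4 lines stood as replicates and no line had a replicate of its own. The libraries held 6559933 to 9291154 counts. Of 9 melanocyte markers, the summed count was 10845 and 7215 in the A375 libraries and at most 407 elsewhere. Most of the A375 sum came from SOX10 (3952 and 4269 counts), S100A1 (1603 and 2028) and untreated MITF (3540). MITF was far lower in the treated A375 library. MLANA, PMEL, TYR and TYRP1, also on that list, had at most 28 counts in A375. The kidney marker PAX8 had 1552 and 2097 counts in A498 and at most 47 elsewhere. The lung cell markers SFTPB, SFTPC and NKX2-1 were at or near 0 in 549 and H1703, with at most 12 counts, and the epithelial keratin KRT18 had 21402 counts in untreated 549 and 169 in untreated H1703. KRT18 also had 3109 counts in untreated A498 and 367 in untreated A375. Summed over 10 lung and epithelial markers, the untreated count was 63396 in 549, 38594 in A498, 625 in A375 and 228 in H1703. Of 9 markers of other cell types, the T cell marker CD3E and the red cell marker HBB were at 0 in every library. The neural marker NCAM1 had 141 to 229 counts in the A375 and A498 libraries, and the leukocyte marker PTPRC and the monocyte marker CD14 had at most 33 and 32 counts. All 10 interferon response genes of a check list were higher in the treated library of every line and passed the test.

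Cells make cholesterol from acetyl-CoA through mevalonate, farnesyl diphosphate, squalene and lanosterol. The transcription factors SREBP-1 and SREBP-2, encoded by SREBF1 and SREBF2, are made as membrane proteins of the endoplasmic reticulum. When sterols are scarce, the escort protein SCAP carries them to the Golgi, where they are cut and the released part enters the nucleus. When sterols are plentiful, INSIG proteins hold SCAP back, and INSIG1 is itself a target of the pathway. SREBP-2 acts mainly on sterol genes and SREBP-1c mainly on fatty acid genes. At promoters the SREBPs act beside NF-Y, which binds CCAAT, and Sp1, which binds GC boxes.

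Promoters from RefSeq (GRCh38.p14, the 250 bases before the start) were found for 28 of the 32 genes, and not for FASN, ACAT2, FDFT1 and SQLE. They were searched on both strands for 4 motifs. The classical sterol element, TCACNCCAC, was in 1 of 28, that of SREBF2, beside 0.883% of all 35114 promoters of the table and 1.2% of the 9871 tested genes with at least 1 promoter there. CCAAT was in 20 of 28, beside 32% of all promoters and 41.7% of those genes. The GC box GGGCGG was in 27 of 28, beside 42.6% and 74.6%, and the gamma-activated element TTCNNNGAA in 0 of 28, beside 6.57% and 7.43%. In the promoters printed below no marked motif shares a base with another. A match is a description of letters, and a window without one says only that those letters are absent there. The sequences below show the 1 promoter with the sterol element. Also shown are the promoters of 3 genes whose treated level was below the untreated in at least 3 lines (MSMO1, EBP and INSIG1). The last is that of CYP51A1, whose fitted change was nearest 0. Capitals mark the sterol element and CCAAT in either orientation (ATTGG on the printed strand). They lie at chr22:41832855-41833104 (SREBF2, plus strand), chr4:165327419-165327668 (MSMO1, plus), chrX:48521558-48521807 (EBP, plus), chr7:155297628-155297877 (INSIG1, plus) and chr7:92134478-92134727 (CYP51A1, minus). Each is printed from its upstream end to the base before the start.
SREBF2: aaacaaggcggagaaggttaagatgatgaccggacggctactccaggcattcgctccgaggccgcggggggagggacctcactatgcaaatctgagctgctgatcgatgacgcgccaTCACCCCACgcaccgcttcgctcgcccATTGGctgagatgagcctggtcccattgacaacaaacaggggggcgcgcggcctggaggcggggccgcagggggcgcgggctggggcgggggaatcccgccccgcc
MSMO1: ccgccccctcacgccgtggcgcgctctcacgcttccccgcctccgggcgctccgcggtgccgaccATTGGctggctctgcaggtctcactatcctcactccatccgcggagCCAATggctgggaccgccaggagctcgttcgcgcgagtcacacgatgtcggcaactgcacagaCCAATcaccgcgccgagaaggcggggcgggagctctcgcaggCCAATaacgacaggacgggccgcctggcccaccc
EBP: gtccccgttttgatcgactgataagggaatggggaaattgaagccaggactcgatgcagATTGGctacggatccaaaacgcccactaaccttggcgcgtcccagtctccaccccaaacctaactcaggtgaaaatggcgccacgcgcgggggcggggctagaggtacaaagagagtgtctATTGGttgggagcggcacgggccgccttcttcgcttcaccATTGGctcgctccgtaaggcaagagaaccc
INSIG1: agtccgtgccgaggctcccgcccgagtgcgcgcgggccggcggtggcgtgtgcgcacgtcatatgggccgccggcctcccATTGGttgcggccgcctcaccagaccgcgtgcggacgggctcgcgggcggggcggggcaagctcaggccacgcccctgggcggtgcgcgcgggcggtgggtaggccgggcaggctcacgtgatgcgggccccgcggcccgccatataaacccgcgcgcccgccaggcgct
CYP51A1: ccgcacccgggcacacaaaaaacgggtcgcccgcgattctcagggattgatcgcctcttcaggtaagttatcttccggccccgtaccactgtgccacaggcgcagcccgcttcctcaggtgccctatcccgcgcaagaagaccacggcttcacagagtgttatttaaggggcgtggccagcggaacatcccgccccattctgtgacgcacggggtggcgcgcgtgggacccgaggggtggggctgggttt
In SREBF2 the sterol element begins 133 bases before the start and the CCAAT box 106 bases before it. MSMO1 holds 4 CCAAT boxes, EBP 3, INSIG1 1 and CYP51A1 none. These were chosen after the values were seen, and whether CCAAT goes with the change was not tested. Of the genes without CCAAT, AACS, FADS1, FADS2, PMVK and SCAP were lower at an unadjusted p under 0.05 by edgeR. CYP51A1, ELOVL6 and SREBF1 were not. Of those with it, all were but ACLY, ACSS2, HSD17B7, NSDHL, SC5D and STARD4.

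Across the 4 lines most of the 32 genes had lower levels with IFN-gamma, but no single gene passed the test. The fitted log2 change was below 0 for all but CYP51A1 and STARD4, with a median of -0.72 beside -0.015 over all genes tested. By edgeR's quasi-likelihood test with Benjamini-Hochberg adjustment over all genes, 0 of 32 were called lower, beside 0.327% of all genes, and 0 were called higher, beside 1.59%. The smallest adjusted p among them was 0.088, for DHCR7. At an unadjusted p under 0.05, 23 of 32 were lower, beside 10.2% of all genes, and 0 were higher, beside 10.8%. DESeq2, another count test, called 7 of 32 lower, beside 3.01% of all genes, and these were DHCR7, EBP, FDFT1, HMGCS1, LSS, FASN and INSIG1. Within the libraries, 18 of 32 had a log2 ratio below 0 in all 4 lines, beside 15.2% of all genes. That count takes the sign alone. In H1703 the 95% interval from counting error included 0 for all of those 18 but ACACA, DHCR7, FADS1, FASN, PMVK, SC5D and SCD. In 549, A375 and A498 together, 25 of 32 did, beside 23.4%. With no filter on low counts the edgeR fit called 4 lower (DHCR7, EBP, FDFT1 and HMGCS1), beside 1.26% of genes. Without H1703 it called 4 lower (DHCR7, EBP, HMGCS1 and MSMO1), beside 1.04% of genes.

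**Figure D1:**
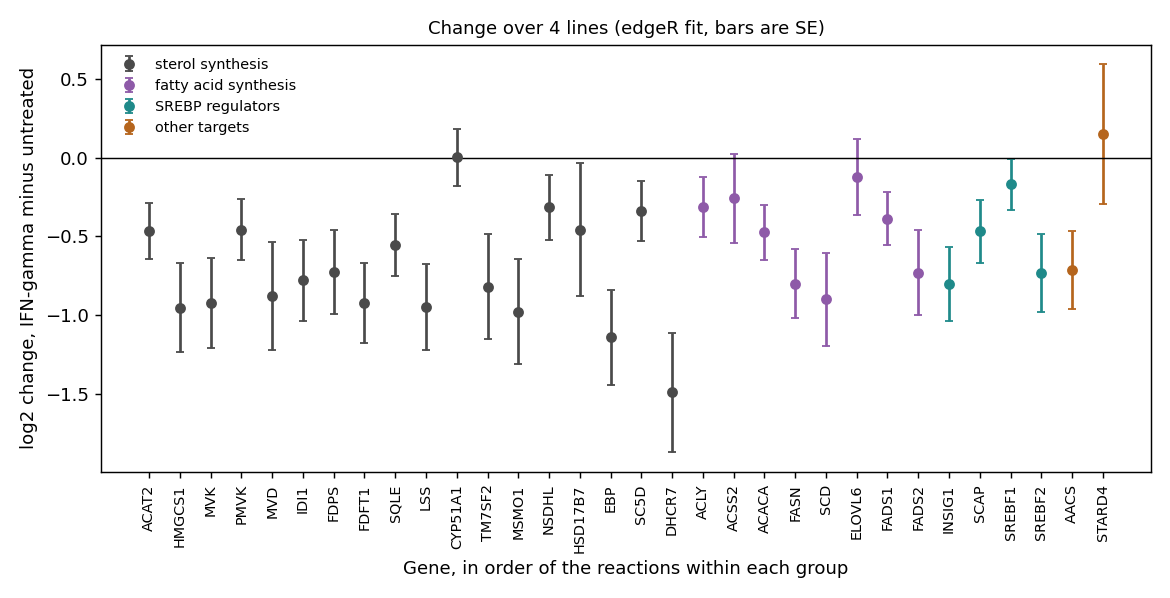
Fitted log2 change with IFN-gamma (vertical axis, log2 scale) for the 32 genes (horizontal axis, by group and in pathway order), with bars of 1 standard error from the edgeR fit over 4 lines. Most points lie below 0, DHCR7 is lowest at -1.49, and CYP51A1 and STARD4 lie at 0.0022 and 0.15.

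Sterol synthesis had the lowest values of the groups. Its 18 genes had a median log2 change of -0.80, with 14 of 18 lower at an unadjusted p under 0.05 (10.2% of all genes), 12 of 18 below 0 in all 4 lines (15.2%), and 0 called lower (0.327%). In H1703 the interval from counting error included 0 for all of those 12 but DHCR7, PMVK and SC5D. The 7 genes from acetyl-CoA to farnesyl diphosphate had a median of -0.78, the 3 from squalene to lanosterol -0.92, and the 8 after lanosterol -0.64. The last group held both the lowest value (DHCR7) and the highest (CYP51A1). Levels below are CPM, counts scaled to a common library size, untreated first, and can be compared within a gene but not between genes. A difference is called within counting error where the interval of the ratio from counting error alone includes 0. In a single line, lower or higher compares its untreated and treated library, even where the difference lies within counting error.

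The early steps build the isoprenoid chain. HMGCS1, which makes HMG-CoA, was at 61.9 and 19.3 CPM in A375, 156 and 73.0 in 549, 161 and 71.3 in A498, and 113 and 124 in H1703. The treated library was thus lower in 3 lines and slightly higher in H1703, and the log2 change was -0.95 ± 0.28 (SE, 4 lines; edgeR adjusted p = 0.11). MVK, mevalonate kinase, was at 32.4 and 11.1 CPM in A375, 9.42 and 6.16 in 549, 16.4 and 6.77 in A498, and 7.47 and 6.70 in H1703. Its untreated range reached down into the treated range, because 549 and H1703 started low, although every line was lower after treatment (log2 change -0.92 ± 0.29, edgeR adjusted p = 0.13). The MVK difference in H1703 lay within counting error. PMVK, which adds the next phosphate, was at 30.9 and 18.5 CPM in A375, 43.6 and 34.0 in 549, 30.7 and 28.5 in A498, and 28.2 and 18.3 in H1703. It was lower in all 4 lines by modest amounts, with a log2 change of -0.46 ± 0.19 (edgeR adjusted p = 0.22). The PMVK difference in A498 lay within counting error. MVD, the decarboxylase of the same chain, was thinly covered, with 77 and 20 counts in A375, 44 and 21 in 549, 69 and 43 in A498, and 38 and 43 in H1703. After scaling, H1703 was level at 4.89 and 4.80 CPM, and the log2 change over the lines was -0.88 ± 0.34 (edgeR adjusted p = 0.19).

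IDI1, the isopentenyl diphosphate isomerase, was at 53.8 and 18.8 CPM in A375, 27.4 and 16.9 in 549, 51.0 and 26.7 in A498, and 35.7 and 36.3 in H1703. FDPS, which makes farnesyl diphosphate, was at 176 and 55.0 CPM in A375, 79.2 and 43.7 in 549, 169 and 129 in A498, and 81.0 and 80.5 in H1703. In both genes H1703 was level and A375 had the lowest ratio, and the log2 changes were -0.78 ± 0.26 and -0.73 ± 0.27 (edgeR adjusted p = 0.14 and 0.17). ACAT2, the cytosolic acetoacetyl-CoA thiolase that feeds the chain, was at 223 and 141 CPM in A375, 173 and 124 in 549, 145 and 88.5 in A498, and 320 and 316 in H1703. H1703 thus held the highest level in both arms and was level between them, and the log2 change was -0.47 ± 0.18 (edgeR adjusted p = 0.19). ACAT2 overlaps SOD2 and TCP1 on the opposite strand, MVK overlaps MMAB, IDI1 overlaps IDI2-AS1 and FDPS overlaps RUSC1-AS1, and FDPS also has 8 named pseudogenes. Whether counting used the strand is not given in the sources used here, so these counts are uncertain.

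The squalene steps commit the chain to sterols. FDFT1, squalene synthase, was at 249 and 74.8 CPM in A375, 69.9 and 40.6 in 549, 104 and 51.8 in A498, and 52.3 and 47.3 in H1703. Every line was lower after treatment, with A375 at 30.2% of its untreated level and H1703 at 90.6%, and the log2 change was -0.92 ± 0.25 (edgeR adjusted p = 0.10). SQLE, squalene epoxidase, was at 95.2 and 46.3 CPM in A375, 61.9 and 46.7 in 549, 124 and 78.4 in A498, and 46.3 and 43.2 in H1703. The untreated and treated ranges overlapped and each line was lower, with a log2 change of -0.55 ± 0.20 (edgeR adjusted p = 0.16). LSS, which closes the ring to lanosterol, had 107 and 36 counts in A375, 54 and 18 in 549, 181 and 115 in A498, and 91 and 85 in H1703. After scaling it was lower in every line, with a log2 change of -0.95 ± 0.27 (edgeR adjusted p = 0.11). For FDFT1, SQLE and LSS the difference in H1703 lay within counting error.

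The steps after lanosterol were the most uneven. DHCR7, the reductase that finishes cholesterol, was at 41.9 and 5.74 CPM in A375, 26.1 and 7.11 in 549, 37.6 and 18.4 in A498, and 26.8 and 20.8 in H1703. The untreated and treated ranges did not overlap, and the treated level was 14.2% of the untreated in A375, 27.9% in 549, 49.4% in A498 and 77.8% in H1703. The log2 change was -1.49 ± 0.38 (edgeR adjusted p = 0.088). EBP, the sterol isomerase, was at 73.3 and 18.2 CPM in A375, 88.0 and 28.4 in 549, 78.6 and 45.0 in A498, and 49.4 and 45.1 in H1703. Its treated levels were again all below its untreated levels, with a log2 change of -1.14 ± 0.30 (edgeR adjusted p = 0.094). The EBP difference in H1703 lay within counting error. MSMO1, the sterol C4 methyl oxidase, was at 40.7 and 10.7 CPM in A375, 32.8 and 17.8 in 549, 152 and 57.7 in A498, and 33.6 and 41.1 in H1703. It was lower in 3 lines and higher in H1703, and untreated A498 stood far above the other untreated libraries (log2 change -0.98 ± 0.33, edgeR adjusted p = 0.15).

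TM7SF2, a sterol reductase, had 45 and 12 counts in A375, 84 and 56 in 549, 17 and 10 in A498, and 51 and 44 in H1703. Each ratio was below 0 after scaling, but in 549, A498 and H1703 its 95% interval from counting error alone included 0. The log2 change was -0.82 ± 0.33 (edgeR adjusted p = 0.20), and TM7SF2 overlaps VPS51 on the same strand. HSD17B7, a ketosteroid reductase of the demethylation complex, had 116 and 33 counts in A375, 46 and 30 in 549, 79 and 55 in A498, and 28 and 68 in H1703. It was lower in 3 lines and higher past 2-fold in H1703, with a log2 change of -0.46 ± 0.42 (edgeR adjusted p = 0.55), and it has the named pseudogenes HSD17B7P1 and HSD17B7P2. The HSD17B7 difference in 549 lay within counting error.

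NSDHL, the dehydrogenase of that complex, was at 43.6 and 26.1 CPM in A375, 35.2 and 39.2 in 549, 44.1 and 29.2 in A498, and 48.1 and 45.5 in H1703. SC5D, the desaturase before DHCR7, was at 39.6 and 28.7 CPM in A375, 15.4 and 12.5 in 549, 24.3 and 23.6 in A498, and 26.9 and 18.4 in H1703. Neither reached an unadjusted p under 0.05, with log2 changes of -0.32 ± 0.21 and -0.34 ± 0.19 (edgeR adjusted p = 0.40 and 0.33). CYP51A1, the lanosterol demethylase, was at 114 and 126 CPM in A375, 73.8 and 79.6 in 549, 88.3 and 63.4 in A498, and 55.6 and 65.2 in H1703. It was slightly higher in 3 lines and lower in A498, and the fitted change was 0.0022 ± 0.18 on the log2 scale (edgeR adjusted p = 0.99), a sign that turned under several scalings. The difference in 549 lay within counting error. CYP51A1 overlaps CYP51A1-AS1 and has 3 named pseudogenes, so its level is uncertain.

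**Figure D2:**
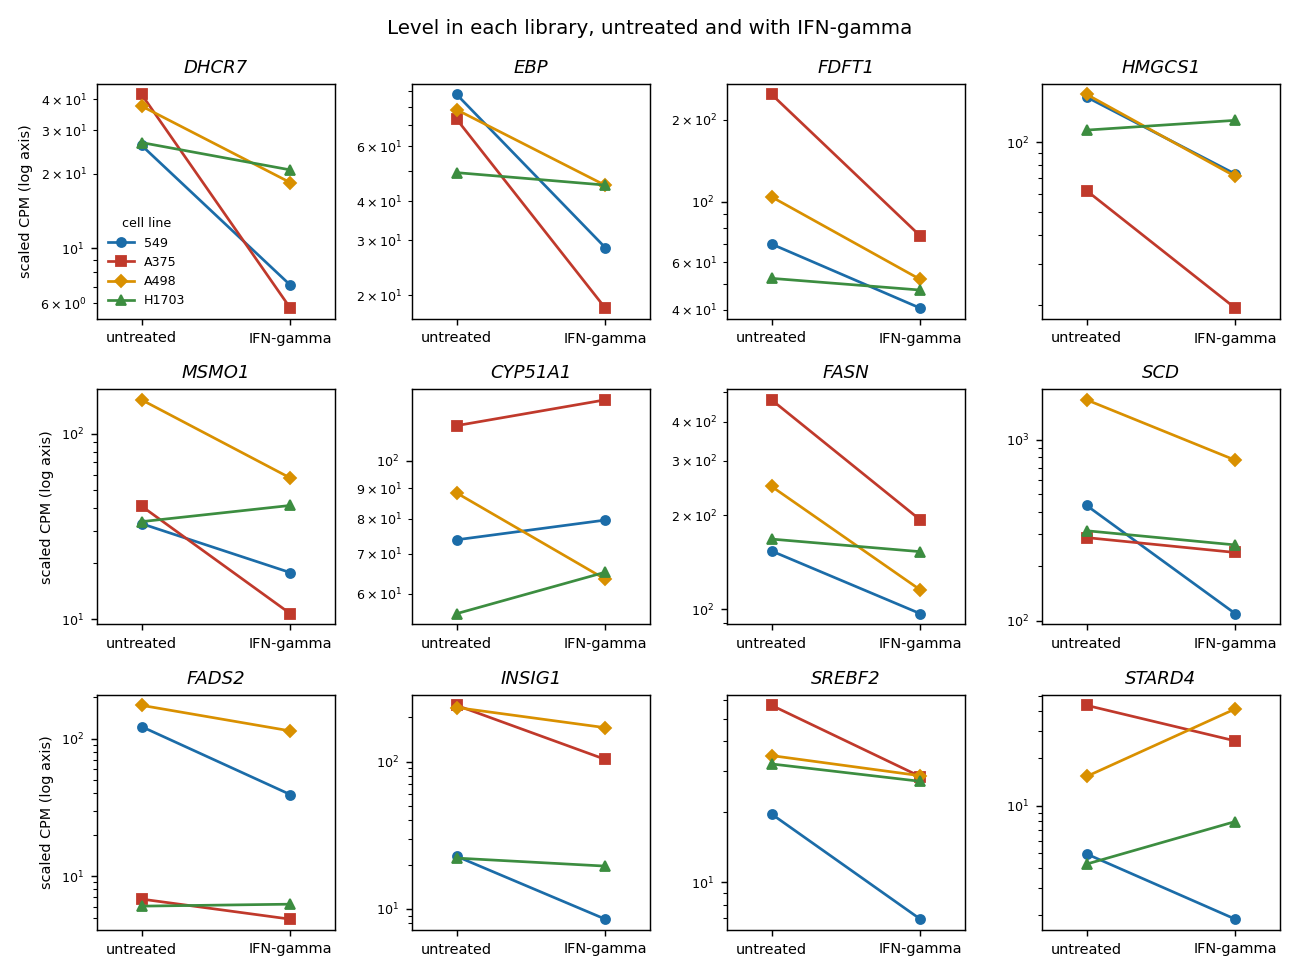
Scaled CPM (vertical axis, log scale) of selected genes in the untreated and treated library of each line, 1 point per library, with a line joining the arms of a cell line. The DHCR7 and EBP points are lower after treatment in every line, and in those panels the H1703 line is the flattest.

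Fatty acid synthesis had values nearer 0 in the fit across lines. Its 8 genes had a median log2 change of -0.43, with 5 of 8 lower at an unadjusted p under 0.05 (10.2% of all genes), 4 of 8 below 0 in all 4 lines (15.2%), and 0 called lower (0.327%). ACLY, which makes cytosolic acetyl-CoA from citrate, was at 561 and 412 CPM in A375, 1236 and 729 in 549, 691 and 633 in A498, and 386 and 409 in H1703. ACSS2, which makes acetyl-CoA from acetate, was at 51.2 and 76.3 CPM in A375, 8.99 and 7.11 in 549, 15.8 and 8.10 in A498, and 3.99 and 2.79 in H1703. Each gene was lower in 3 lines, with the exception in H1703 for ACLY and in A375 for ACSS2, and their log2 changes were -0.31 ± 0.19 and -0.26 ± 0.28 (edgeR adjusted p = 0.38 and 0.62). The ACSS2 differences in 549 and H1703 lay within counting error.

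ACACA, acetyl-CoA carboxylase, was at 55.8 and 33.8 CPM in A375, 51.5 and 41.7 in 549, 65.8 and 42.5 in A498, and 53.9 and 45.6 in H1703. FASN, the synthase that builds palmitate, was at 470 and 193 CPM in A375, 154 and 96.7 in 549, 248 and 115 in A498, and 168 and 153 in H1703. Both were lower in all 4 lines, with log2 changes of -0.47 ± 0.17 and -0.80 ± 0.22 (edgeR adjusted p = 0.17 and 0.10). ACACA levels after treatment were all below those before it, whereas the FASN ranges overlapped.

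Desaturases and an elongase modify fatty acid chains. SCD, which makes oleate from stearate, was at 288 and 239 CPM in A375, 434 and 110 in 549, 1660 and 771 in A498, and 314 and 263 in H1703. Treated SCD was 25.3% of untreated in 549 and 46.4% in A498 but 82.8% in A375 and 83.5% in H1703, and its log2 change was -0.90 ± 0.29 (edgeR adjusted p = 0.14). FADS2, the first desaturase of polyunsaturated fatty acids, was at 6.81 and 4.86 CPM in A375, 122 and 39.2 in 549, 175 and 114 in A498, and 6.05 and 6.25 in H1703. Its untreated level thus put 549 and A498 far above A375 and H1703, where its counts were at most 62, and its log2 change was -0.73 ± 0.27 (edgeR adjusted p = 0.18). FADS2 overlaps FEN1 on the same strand. Without 549 the log2 changes were -0.54 for SCD and -0.37 for FADS2.

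FADS1, the second desaturase, was at 201 and 163 CPM in A375, 428 and 273 in 549, 351 and 259 in A498, and 176 and 158 in H1703. It was lower in every line, with a log2 change of -0.39 ± 0.17 (edgeR adjusted p = 0.23). It overlaps FADS2 on the opposite strand, so reads within the shared bases cannot be told apart without the strand. ELOVL6, which lengthens palmitate, was at 24.3 and 40.6 CPM in A375, 21.5 and 18.3 in 549, 146 and 109 in A498, and 26.3 and 17.6 in H1703. It was higher in A375 and lower in the other lines, with a log2 change of -0.12 ± 0.24 (edgeR adjusted p = 0.79). The ELOVL6 difference in 549 lay within counting error.

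Among the 4 regulators the median log2 change was -0.60, with 3 of 4 lower at an unadjusted p under 0.05 (10.2% of all genes) and 0 called lower (0.327%). INSIG1, the sterol-sensing brake, was at 241 and 103 CPM in A375, 22.8 and 8.53 in 549, 232 and 170 in A498, and 22.1 and 19.5 in H1703. It was lower in each line from very different starting levels (log2 change -0.80 ± 0.24, edgeR adjusted p = 0.11). The INSIG1 difference in H1703, on 172 and 175 counts, lay within counting error. SREBF2 was at 57.1 and 28.3 CPM in A375, 19.6 and 6.95 in 549, 34.8 and 28.5 in A498, and 32.0 and 27.0 in H1703. It was lower in each line, most in 549, with a log2 change of -0.73 ± 0.25 (edgeR adjusted p = 0.15), and it overlaps SREBF2-AS1. The SREBF2 difference in H1703 also lay within counting error.

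SCAP, the escort, was at 93.8 and 48.3 CPM in A375, 51.0 and 51.5 in 549, 35.7 and 23.0 in A498, and 86.8 and 71.0 in H1703. It was level in 549 and lower in the other lines, with a log2 change of -0.47 ± 0.20 (edgeR adjusted p = 0.23). SREBF1 was at 100.2 and 85.0 CPM in A375, 80.3 and 62.4 in 549, 98.5 and 99.0 in A498, and 50.7 and 48.0 in H1703. Its fitted change was the nearest to 0 of the regulators, with a log2 change of -0.17 ± 0.16 (edgeR adjusted p = 0.57), and it overlaps RAI1 on the opposite strand. The counts are per gene, so SREBP-1a and SREBP-1c were not separated.

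The other pair of targets differed from each other. AACS, which turns acetoacetate into acetoacetyl-CoA for lipid synthesis, had 256 and 114 counts in 549 and was at 49.3 and 19.2 CPM in A375, at 56.3 and 39.8 in A498 and level in H1703 at 26.1 and 26.8, with a log2 change of -0.71 ± 0.25 (edgeR adjusted p = 0.16). STARD4, which carries cholesterol between membranes, had 396 and 207 counts in A375, 34 and 12 in 549, 104 and 311 in A498, and 33 and 71 in H1703. STARD4 was lower in 549 and A375 and higher in A498 and H1703, with a log2 change of 0.15 ± 0.44 (edgeR adjusted p = 0.87), and it overlaps STARD4-AS1.

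The groups were next set side by side within each line. With 1 library per arm these are differences between libraries, given with a 2-fold size and no test, and any interval covers counting error only. In A375, 13 of 18 sterol genes, 1 of 8 fatty acid genes and 2 of 4 regulators were lower past 2-fold, beside 10.1% of all genes. The medians were -1.54, -0.37 and -0.98 on the log2 scale, beside 0 over all genes. FASN was the fatty acid gene past 2-fold in A375, while ELOVL6 and ACSS2 were higher there at log2 ratios of 0.74 and 0.57. The DHCR7 ratio of -2.82 (95% interval -3.34 to -2.43) was the lowest of any member in any line. SREBF2 sat just past the 2-fold limit with -1.01, and SCAP just short of it with -0.95. The count of regulators was 1 under 4 alternatives, and it was 3 under upper quartile scaling and under library size alone.

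In 549 the fatty acid and sterol genes lay close together. Of the sterol genes 4 of 18 (HMGCS1, LSS, EBP and DHCR7), of the fatty acid genes 2 of 8 (SCD and FADS2) and of the regulators 2 of 4 (INSIG1 and SREBF2) were lower past 2-fold, beside 9.16% of all genes. The medians were -0.64, -0.66 and -0.88. No member (0 of 32) was higher past 2-fold in 549 or A375, beside 6.81% and 10.5% of all genes. SCD had the lowest ratio in 549, at -1.98 (95% interval -2.11 to -1.87).

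In A498 5 of 18 sterol genes (HMGCS1, MVK, FDFT1, MSMO1 and DHCR7), 2 of 8 fatty acid genes (FASN and SCD) and 0 of 4 regulators were lower past 2-fold, beside 6.78% of all genes. The medians were -0.80, -0.62 and -0.37. All 18 sterol genes and all 8 fatty acid genes had a ratio below 0 there, CYP51A1 included, beside 49.2% of all genes. STARD4 was the exception, 1 of 32 higher past 2-fold beside 10.5% of all genes, with a log2 ratio of 1.41 (95% interval 1.10 to 1.76).

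H1703 had no member lower past 2-fold (0 of 32), beside 1.53% of all genes, and 23 of 32 ratios below 0, beside 51.1%. Most of those 23 ratios lay within counting error. The medians were -0.09, -0.20 and -0.21 for sterol genes, fatty acid genes and regulators. HSD17B7 was higher past 2-fold (1 of 32, beside 3.3% of all genes), on 28 and 68 counts (log2 ratio 1.02, 95% interval 0.42 to 1.76). For the interferon check list the median was 3.13 in H1703, beside 3.84 in A498, 3.67 in 549 and 3.41 in A375, and its 10 genes were past 2-fold in each line.

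Summed over a group, the treated level of the 18 sterol genes was 46.7% of the untreated in A375, 63.7% in 549, 58.6% in A498 and 98.4% in H1703. For the 8 fatty acid genes it was 70.1%, 53.5%, 61.2% and 93% in the same order, and for the 4 regulators 53.9%, 74.5%, 79.8% and 86.4%. The sums weigh abundant genes most, such as ACLY and SCD in 549. By this measure A375 had the lowest share for sterol genes and regulators and 549 the lowest for fatty acid genes, and H1703 the highest share for each.

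**Figure D3:**
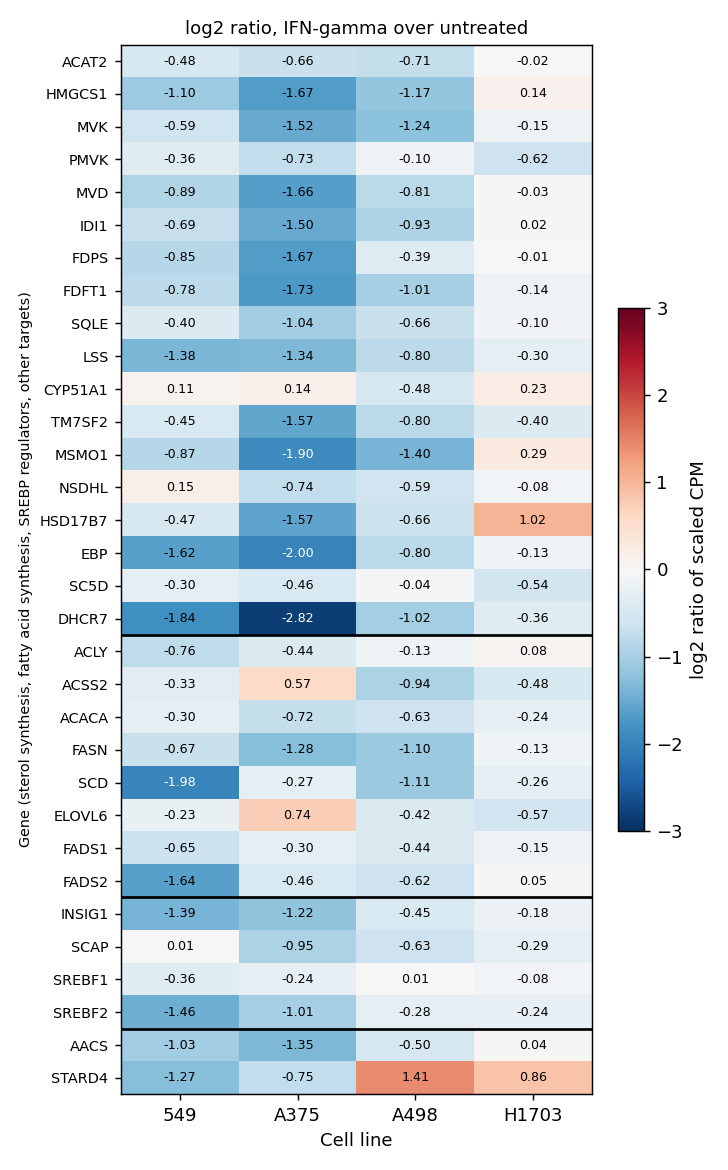
Log2 ratio of treated to untreated scaled CPM (colour scale) for the 32 genes (vertical axis, by group) in each of the 4 lines (horizontal axis). Most sterol genes have their lowest ratio in A375, with DHCR7 at -2.82, and the ratio nearest 0 in H1703. ACAT2 and CYP51A1 are lowest in A498, LSS in 549 and SC5D in H1703.

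Whether a line's response differed from that of the other 3 was tested gene by gene with an interaction term, on 2 residual degrees of freedom. The line singled out has 1 library per arm, so the spread comes from the other 3 lines alone and the line is assumed to vary like them. By edgeR's quasi-likelihood test 0 of 32 members and 0% of all genes were called in each of the 4 fits, which does not show that the lines responded alike. At an unadjusted p under 0.05, 5 members differed in A375, beside 8.57% of all genes, 2 in 549 (beside 3.6%), 1 in A498 (beside 4.35%) and 4 in H1703 (beside 3.11%). DESeq2 called 61, 10, 19 and 14 genes in those lines, in the same order, and none (0) of the members.

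In A375 the log2 ratio was lower than in the other lines by -1.81 ± 0.62 for DHCR7, -1.26 ± 0.43 for FDPS and -1.09 ± 0.44 for FDFT1 (edgeR adjusted p = 0.44, 0.45 and 0.55). It was higher by 1.16 ± 0.39 for ELOVL6 and 1.20 ± 0.46 for ACSS2 (edgeR adjusted p = 0.44 and 0.52). The sterol and fatty acid members with the smallest p in that line thus lay on opposite sides. In 549 the difference was -1.44 ± 0.47 for SCD and -1.26 ± 0.44 for FADS2, and -0.35 ± 0.38 for FADS1, also a desaturase. In H1703 it was 1.45 ± 0.42 for HMGCS1, 1.69 ± 0.50 for MSMO1, 1.34 ± 0.54 for EBP and 2.01 ± 0.75 for HSD17B7, all sterol enzymes (edgeR adjusted p = 1 for each). In A498 it was 1.79 ± 0.77 for STARD4 (edgeR adjusted p = 1), and that gene missed an unadjusted 0.05 under RLE scaling, upper quartile scaling, library size alone and DESeq2.

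Lists for growth and stress also had the median farthest from 0 in A375 and nearest 0 in H1703. A list of 30 cell cycle genes had median log2 ratios of -1.39 in A375, -0.68 in 549, -0.43 in A498 and -0.04 in H1703, with 19 of 30 lower at an unadjusted p under 0.05 (10.2% of all genes) and 0 called. RRM1, a subunit of ribonucleotide reductase, had 2481 and 738 counts in A375, 2091 and 742 in 549, 1790 and 1051 in A498, and 944 and 998 in H1703. A list of 15 genes of the amino acid and unfolded protein stress responses had medians of 1.99, 1.37, 1.12 and -0.13 in the same order, with 12 of 15 higher at an unadjusted p under 0.05 (10.8% of all genes) and 0 called. CHAC1, which breaks down glutathione, had 244 and 3188 counts in A375, 41 and 464 in 549, 126 and 1287 in A498, and 361 and 354 in H1703. The part of growth or stress in the sterol gene levels was not tested. Fewer cells making a transcript and less transcript per cell cannot be told apart in bulk RNA.

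**Figure D4:**
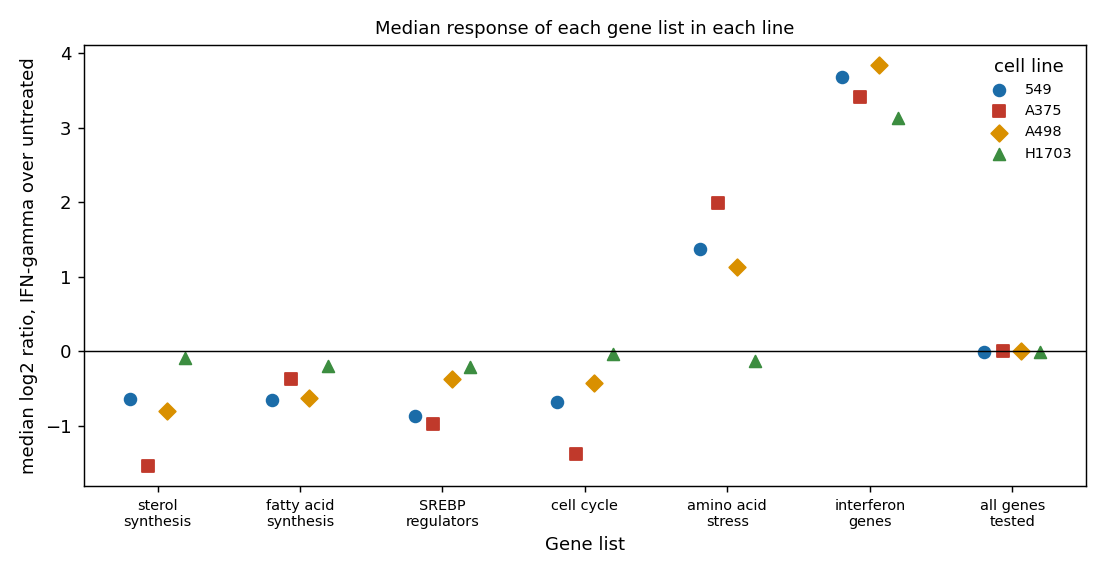
Median log2 ratio (vertical axis) of sterol synthesis, fatty acid synthesis, SREBP regulators and comparison lists (horizontal axis), with 1 point for each line. The medians of all genes tested lie near 0. Sterol and cell cycle medians are lowest in A375 (-1.54 and -1.39) and nearest 0 in H1703 (-0.09 and -0.04).

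The machinery that moves and cuts the SREBPs was taken as a list of its own. Of 19 tested genes of SREBP transport, cleavage and INSIG degradation, 0 were called and 0 had an unadjusted p under 0.05, and their median log2 change was 0.03. VCP, the segregase that extracts proteins for degradation, had the smallest p of the list, with a log2 change of -0.47 ± 0.21 (edgeR adjusted p = 0.24). Its log2 ratio was -0.73 in A375, -0.69 in 549, -0.67 in A498 and 0.23 in H1703. SEC23A, a coat protein of vesicles that leave the endoplasmic reticulum, had -0.73, -0.50, -0.45 and 0.03 in the same order. Both were thus lower in 549, A375 and A498 and not in H1703. Of the 19 genes, 6 had a ratio below 0 in 549, A375 and A498, beside 23.4% of all genes. Another 6 were higher in all 4 lines, beside 2017 of 13457 genes, so the list as a whole did not share this pattern.

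Lists next to the pathway had few genes at an unadjusted p under 0.05, which 10.8% of all genes reached as higher and 10.2% as lower, and 0 genes of each were called. Of 15 tested genes on the isoprenoid branch, 2 were higher and 0 lower at that level, with a median of 0.02, and FNTA, a subunit of protein farnesyltransferase, had a log2 change of 0.48 ± 0.18 (edgeR adjusted p = 0.17). Of 17 genes of sterol storage and transport, 2 were higher and 2 lower, and these shares are near those of all genes. TMEM97, a sterol-binding membrane protein, was among the lower ones, with 966 and 447 counts in A375, 1451 and 734 in 549, 1064 and 588 in A498, and 766 and 796 in H1703. Its log2 change was -0.74 ± 0.19 (edgeR adjusted p = 0.093), while NCEH1, a cholesteryl ester hydrolase, had 1.10 ± 0.31 (edgeR adjusted p = 0.11) and VLDLR, a lipoprotein receptor that the stress list also holds, had 0.99 ± 0.25 (edgeR adjusted p = 0.090).

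Liver X receptors switch on sterol export and SREBF1. Of 10 tested genes of that arm, 2 were lower and 0 higher at an unadjusted p under 0.05, namely LPCAT3 and MYLIP with log2 changes of -0.72 ± 0.24 and -0.79 ± 0.33 (edgeR adjusted p = 0.14 and 0.22). Among enzymes that make or break down oxysterols, which can hold SREBPs in the endoplasmic reticulum, 1 of 7 passed the filter. CH25H, a cholesterol hydroxylase that interferons induce in macrophages, had 0 counts in 7 libraries and 2 in treated H1703, and a count of 0 allows up to 3. CYP27A1, another such hydroxylase, had 806 and 480 counts in A375 and at most 5 elsewhere. HSD3B7, which passed, had 566 and 1901 counts in A498 and a log2 change over the lines of 0.24 ± 0.37 (edgeR adjusted p = 0.73).

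Among partners of fatty acid synthesis, 4 of 26 were higher and 4 lower at an unadjusted p under 0.05, near the 10.8% and 10.2% of all genes. SLC25A1, which exports citrate from mitochondria for ACLY, had 579 and 214 counts in A375, 434 and 183 in 549, 476 and 304 in A498, and 562 and 515 in H1703, and a log2 change of -0.87 ± 0.20 (edgeR adjusted p = 0.072). MID1IP1, an activator of acetyl-CoA carboxylase, had 1.16 ± 0.28 (edgeR adjusted p = 0.081), in the opposite direction. ACSL5, an acyl-CoA synthetase, had 2.87 ± 0.61 (edgeR adjusted p = 0.057) on 3 to 10 untreated counts. Of 18 fatty acid oxidation genes, 4 were lower at that level, beside 10.2% of all genes, and 0 higher, beside 10.8%. In all 4 lines 7 of the 18 had a ratio below 0, beside 15.2% of all genes. HADH, a mitochondrial dehydrogenase of that pathway, had a log2 change of -1.05 ± 0.24 (edgeR adjusted p = 0.072).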

How the data were processed

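RNA was sequenced from 4 cell lines, untreated or with IFN-gamma, 1 library per line and arm, grouped by the sample labels. Bowtie2, edgeR and the build hg19 are named in the submitters' processing notes. The labels' protocols name both a poly(A) stranded kit and a 3' kit, and which made these libraries is not settled. No source used here gives the counting tool, its use of strand or the annotation. The authors deposited, per the file headers, raw counts per gene and normalized log2 values. The scaling of the deposited log2 values is not stated, and they served 1 alternative only.

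Rows (25737) were summed by symbol. Library totals were 6559933 to 9291154. Genes were kept by filterByExpr (minimum count 10, minimum total 15), scaled by TMM and fitted with cell line and treatment as terms by edgeR 4.0.16 in R 4.3.3 (glmQLFit, glmQLFTest, 3 residual degrees of freedom), with Benjamini-Hochberg adjustment over 13457 genes at 0.05. The standard error is the size of the log2 change over the root of F. Since no line has replicate cultures, p-values rest on the spread between lines. With 4 lines, an exact permutation of paired signs gives no p below 0.125. Ratios within a line used a prior count of 2 and exact conditional binomial 95% intervals, which cover counting error only. Libraries of a line share cells, and deviations from the arm means correlated at 0.85 to 0.90 within a line across genes. The methods were tested on simulated data.

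The members and lists were chosen with earlier results of these data known, so no test was run over a list. Every member is named, with up to 3 tested genes of smallest p for each other list. Some genes within that rule are not reported here. Genes given outside that rule were chosen after their values were seen: the oxysterol enzymes below the filter and the markers. Promoters to print were to be chosen by the sterol element, which only SREBF2 held, so the other 4 were chosen after the values were seen. They come from RefSeq on GRCh38.p14, another build than that of the counts. Gene overlaps come from GENCODE by name. The alternatives were other scalings, other filters, prior counts of 0.5 and 5, DESeq2 1.42.0, limma-voom and the log2 values with limma 3.58.1, no replicate block, and leaving out each line. Figures were drawn with matplotlib 3.10.9.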

Additional observations from a re-analysis of the deposited data

Results flagged for a closer look

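For each of the 32 genes, the 4 untreated levels, the 4 treated levels and the 4 log2 ratios were screened for a value far from the other 3, and 8 of 96 such sets held one. Chance gives about 1 in 20. The lines are different cell types, so these are differences between single libraries and were not tested.

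In untreated A498, SCD stood at 1660 CPM beside 288 to 434 in the other lines, ELOVL6 at 146 beside 21.5 to 26.3, and MSMO1 at 152 beside 32.8 to 40.7. In treated A498, SQLE stood at 78.4 CPM beside 43.2 to 46.7, and the CYP51A1 log2 ratio was -0.48 beside 0.11 to 0.23. In treated A375, ACSS2 stood at 76.3 CPM beside 2.79 to 8.10, and MVK at 11.1 beside 6.16 to 6.77. In treated 549, SREBF2 stood at 6.95 CPM beside 27.0 to 28.5, which was the only regulator value so far from the rest in this screen.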

How the results depend on the processing

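The median log2 change of the sterol genes stayed below 0 under every alternative run, from -1.03 without H1703 to -0.54 without A375, that of the fatty acid genes from -0.52 to -0.33, and that of the regulators from -0.73 to -0.46. The count of called genes, 258 in the main fit, was 884 with no filter, 1036 by DESeq2 and 111 with the authors' log2 values, and it ranged from 106 (without A498) to 455 (without H1703) when 1 line was left out. Members called lower, 0 in the main fit, were 4 with no filter (4 sterol), 7 by DESeq2 (5 sterol, 1 fatty acid, 1 regulator), and 0 to 4 when 1 line was left out (0 to 4 sterol), the 4 being without H1703. The causes were not tested. Without the replicate block, that is without cell line in the model, 0 genes were called, with 543 at an unadjusted p under 0.05, and the ACSS2 change was 0.24. The regulators past 2-fold in A375, 2 in the main setting, were 1 under RLE scaling, no filter, the CPM filter and a prior count of 5, and 3 under upper quartile scaling and library size alone. Genes differing between 1 line and the others, 0 in the main fits, were 10 by DESeq2 for 549. For A375 they were 2 by upper quartile scaling, 2 by library size alone, 91 with no filter and 61 by DESeq2. For A498 they were 31 with no filter and 19 by DESeq2, and for H1703 14 by DESeq2. The sign of CYP51A1 turned under RLE (-0.0039), upper quartile (-0.065), library size alone (-0.073), DESeq2 (-0.0038) and the authors' log2 values (-0.0045), and ranged from -0.082 to 0.16 when 1 line was left out. With 1 line left out, STARD4 ranged from -0.36 to 0.56 and ELOVL6 from -0.41 to 0.02 (0.017 without H1703). Others that moved by over 1.5 times were ACLY (-0.15), FADS2 (-0.37), SCD (-0.54) and SREBF1 (-0.093) without 549, FDPS (-0.41), NSDHL (-0.17), SCAP (-0.30), HSD17B7 (-0.054) and ACSS2 (-0.62) without A375, ACSS2 (-0.012) without A498 and HSD17B7 (-0.94) without H1703. Library size alone shifted the median of all genes in A375 by -0.11.

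With 1 library per line and arm, no response within a line has a replicate, and genes with few counts, such as TM7SF2 and MVD, have wide intervals. Established lines in culture stand as single models of their tissue.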
